A study of Mus musculus with 15 samples.

Results

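The 7 genes described here encode proteins that carry or shape the electrical impulse of the heart: the connexins Gja5, Gja1, Gja4 and Gjc1 and the channel genes Hcn4, Kcne1 and Kcnq1. They were chosen by name, not by their measured values, and are 7 of the 16809 genes counted. They were followed through single-cell transcriptomes of whole mouse hearts at E14.5, with Gja5 taken further to separate the share of trabecular cells from the level per cell. The study sequenced 8 libraries from homozygous Adamts19 knockout (KO) hearts and 7 from wild-type (WT) hearts, all of the C57BL6/N background. Adamts19 encodes a secreted metalloprotease. KO replicates 5 to 8 carried the allele tm4b and came from litter 7. KO replicates 1 to 4 carried the allele tm4a, with replicate 1 from litter 5 and replicates 2 to 4 from litter 6. WT replicates 1 and 2 came from litter 1, replicates 3 and 4 from litter 2, replicate 5 from litter 3, and replicates 6 and 7 from litter 4. No litter held both genotypes, and WT replicate 5 was the 1 WT library on the flow cell of the 8 KO libraries, so genotype, litter and flow cell can be told apart only in small part.

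Connexins assemble into gap junctions, channels that join the cytoplasm of neighbouring cells and let current pass from one heart muscle cell to the next. Connexin40, the product of Gja5, is known from the atria, the ventricular trabeculae that give rise to the Purkinje fibres, and arterial endothelium, whereas connexin43 (Gja1) is the main connexin of working ventricular muscle. Connexin37 (Gja4) belongs to endothelium and connexin45 (Gjc1) to early heart muscle and the nodes. Hcn4 encodes the pacemaker channel of the sinus node. Kcnq1 encodes the pore and Kcne1 the accessory subunit of the slow delayed rectifier potassium channel that helps repolarise heart muscle.

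The results turn on Gja5, so the 250 bases before its RefSeq start are shown, as given by RefSeq on GRCm38.p6 at chr3:97032152-97032401, plus strand. The GENCODE gene used for coordinates below begins farther upstream, so the window lies inside it.

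Gja5 upstream: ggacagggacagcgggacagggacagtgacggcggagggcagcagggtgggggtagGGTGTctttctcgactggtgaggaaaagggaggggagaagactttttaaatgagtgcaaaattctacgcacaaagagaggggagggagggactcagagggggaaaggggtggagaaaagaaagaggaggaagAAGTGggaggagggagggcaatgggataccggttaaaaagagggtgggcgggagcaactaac

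The capitals mark the T-box core GGTGT, 194 bases before the start, and the Nkx2-5 core AAGTG, 62 bases before it. Each was searched on both strands and occurred 1 time, and the matches do not overlap. T-box factors and Nkx2-5 are transcription factors of the cardiac chambers and conduction system, but both cores are short and common: 36.2% of 32851 mouse promoter windows of the same length hold the first and 40.7% the second. The longer T-box half-site AGGTGTGA, which 1.12% of the windows hold, had 0 matches. A match of letters describes the sequence and is no evidence of binding.

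In the GENCODE annotation of mm10, Gja5 spans positions 96904693 to 97077416 of chromosome 3 on the plus strand and overlaps Gpr89, which is counted as well. Gja1 lies on chromosome 10 at 56377330 to 56402513 (plus), Gja4 on chromosome 4 at 127311421 to 127314039 (minus), and Gjc1 on chromosome 11 at 102799579 to 102819700 (minus). Hcn4 lies on chromosome 9 at 58823412 to 58863175 (plus) and Kcne1 on chromosome 16 at 92345982 to 92359468 (minus). Kcnq1 lies on chromosome 7 at 143106362 to 143427042 (plus) and overlaps the antisense transcript Kcnq1ot1. No source used here says whether reads were counted by strand, so the Kcnq1 counts are uncertain.

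KO libraries held 5477109 to 10105950 UMIs (unique molecular identifiers, each a counted transcript molecule) and WT libraries 6215439 to 11340443. After filtering, 28425 KO and 22474 WT cells remained. Adamts19 itself had 5.28 to 8.57 CPM (UMI counts scaled to a library or class total of 1000000) in KO libraries, against 15.4 to 49.95 CPM in WT libraries, without overlap. Cells were clustered without the 7 genes, so that none of them could shape its own classes, and clusters were named from marker lists. Of the trabecular-type markers, 7 of 8 were over 2-fold higher in the 1565 trabecular-type cells than in other cardiomyocyte-like cells. The 2574 atrial-type cells matched 10 of 10 markers and the 5634 endocardial-like cells 10 of 11. The 1635 valve endothelial-like cells matched 11 of 11 and the 1532 vascular endothelial-like cells 11 of 12. The 8984 compact-type ventricular cells matched 8 of 10, against cells with 418 CPM of the marker Myl2 in place of 12240 CPM. Against the other cardiomyocyte-like clusters, 0 compact markers were over 2-fold higher in either cluster of the class. The 8 of 10 therefore does not set compact-type cells apart from other ventricular cells. A further atrial cluster of 1478 cells had 6 of 8 sinus node markers, but is called here by its leading genes Shox2 and Vsnl1. Cycling cells formed a ventricular class of 5430 and an atrial class of 1233 cells. Below, a level is the CPM of a class, and means stand with the SD over libraries (n = 8 KO and 7 WT).

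Gja5 was a gene of trabecular and atrial muscle and of vascular endothelium. In trabecular-type cells it averaged 148 ± 43.8 CPM in KO and 211 ± 84.3 CPM in WT libraries, and in atrial-type cells 145 ± 28.9 CPM in KO and 203 ± 55.8 CPM in WT libraries. In WT the order of these classes was not settled: trabecular-type cells were the higher in 4 of 7 libraries. Cycling atrial cells followed with 79.95 CPM in KO and 103 CPM in WT libraries, below atrial-type cells in 7 of 7 WT libraries. Next in WT came vascular endothelial-like cells at 76.2 ± 48.6 CPM and the Shox2 and Vsnl1 atrial cells at 64.7 ± 49.7 CPM, with spreads that overlap. Cycling ventricular cells had 40.7 ± 10.2 CPM and compact-type cells 34.2 ± 9.47 CPM, the first higher in 5 of 7 WT libraries. Valve endothelial-like cells had 24.3 ± 25.5 CPM and endocardial-like cells 5.11 ± 3.45 CPM, close to the 4.54 ± 2.19 CPM of fibroblast-like cells. The trabecular-type class held 3.07% of cells and 19.9% of the 4482 Gja5 UMIs of the 15 libraries, and the atrial-type class 5.06% of cells and 27.1% of the UMIs.

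Gja1 was highest in ventricular muscle. It averaged 931 ± 139 CPM in trabecular-type cells of KO libraries and 860 ± 193 CPM in those of WT libraries. Compact-type cells followed with 568 ± 86.6 CPM in KO and 574 ± 107 CPM in WT libraries, below trabecular-type cells in 7 of 7 WT libraries. Cycling ventricular cells of WT libraries had 501 ± 54.3 CPM. Vascular endothelial-like cells of WT libraries had 336 ± 41.0 CPM, more than the 276 ± 41.6 CPM of atrial-type cells in 6 of 7 libraries. The order of Gja1 was thus led by ventricular rather than atrial muscle, with cardiomyocyte-like cells holding 78.4% of its 38328 UMIs.

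Gja4 was endothelial. Valve endothelial-like cells had 192 ± 103 CPM in KO and 215 ± 70.2 CPM in WT libraries, and in 7 of 7 WT libraries they exceeded vascular endothelial-like cells (111 ± 48.2 CPM). Vascular and endocardial-like cells (96.6 ± 18.7 CPM) were not separated, the first being higher in 4 of 7 WT libraries. All cardiomyocyte-like cells together had 1.01 ± 0.481 CPM in KO and 1.37 ± 0.586 CPM in WT libraries, and endothelial cells held 89.5% of the 2503 Gja4 UMIs. Gjc1 was found in most classes at low levels. Its WT levels ran from 73.1 ± 20.8 CPM in fibroblast-like cells, 65.9 ± 32.3 CPM in the Shox2 and Vsnl1 atrial cells and 65.6 ± 14.8 CPM in valve interstitial-like cells, which overlap, to 4.57 ± 6.51 CPM in macrophage-like cells. Trabecular-type cells (27.4 ± 15.8 CPM) and atrial-type cells (4.48 to 37.3 CPM over libraries, median 23.0) lay at the low end for cells other than macrophages.

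Of the channels, Hcn4 was rare and concentrated in the Shox2 and Vsnl1 atrial cells, which held 149 (39.8%) of its 374 UMIs in 2.90% of the cells. Its level there was 38.9 ± 21.0 CPM in KO libraries (lowest 18.6, median 32.3, highest 69.4) and 44.4 ± 28.0 CPM in WT libraries (7.59, 39.8 and 93.0), so the groups overlapped. In WT it exceeded the 16.4 ± 13.0 CPM of cycling atrial cells in 7 of 7 libraries. Vascular endothelial-like cells held 1 Hcn4 UMI in KO and 0 in WT libraries, where 3 counts over the group would be 2.24 CPM. Kcne1 was highest in compact-type cells. Compact-type cells had 325 ± 38.0 CPM in KO and 351 ± 63.0 CPM in WT libraries. Trabecular-type cells had 102 ± 46.2 CPM in KO and 107 ± 25.8 CPM in WT libraries, and atrial-type cells 12.3 ± 5.24 and 21.5 ± 20.3 CPM in KO and WT libraries. In 7 of 7 WT libraries Kcne1 ranked compact-type first, then cycling ventricular, then trabecular-type cells, and 92.3% of its 12315 UMIs lay in cardiomyocyte-like cells. Kcnq1, the partner of Kcne1, was low throughout, at 15.2 ± 3.66 CPM in compact-type cells of KO and 18.9 ± 9.64 CPM in those of WT libraries. In endocardial-like cells it had 2.61 to 9.82 CPM in KO and 7.09 to 20.8 CPM in WT libraries, where Kcne1 had 0 to 6.99 CPM in KO and 0 to 8.68 CPM in WT libraries. Those levels are too low for a fold change to be given here.

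**Figure D1:**
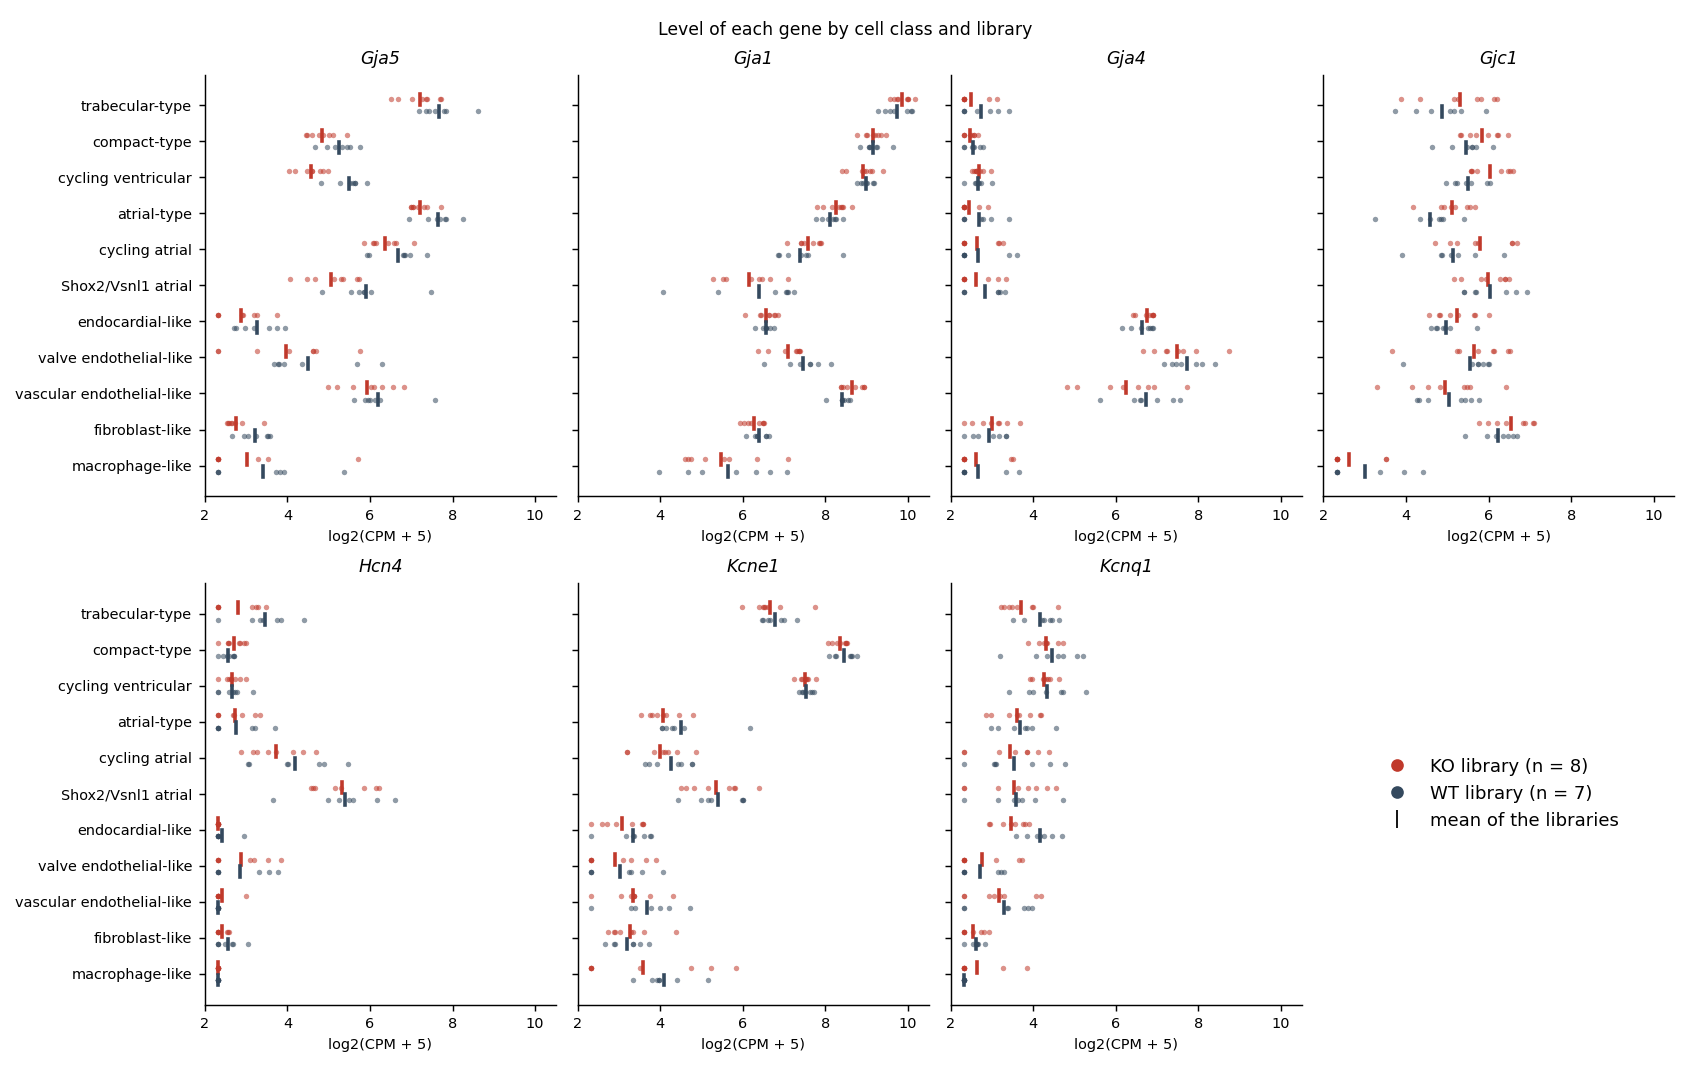
Level of each gene (x axis, log2 of CPM + 5) in 11 cell classes, with 1 point per library and a bar at the group mean, KO (n = 8) above WT (n = 7) in each class. Gja5 peaks in trabecular-type and atrial-type cells, Kcne1 in compact-type cells, Gja4 in endothelial classes and Hcn4 in the Shox2 and Vsnl1 atrial cells, in both groups.

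To say which of these differences exceed the spread between libraries, 5 contrasts between classes of the same library were tested for each gene on log2(CPM + 5) by an exact sign-flip test, 2-sided and adjusted over the 35 tests (Benjamini-Hochberg). Among KO libraries 20 of 35 passed an adjusted p of 0.05, and among WT libraries 17 of 35, and 15 passed in both with the same sign. The smallest p the test can give is 0.00781 with 8 and 0.0156 with 7 libraries. The classes were built from the other genes of the same cells, so these values describe the classes as clustered. Gja5 was higher in trabecular-type than in compact-type cells by 2.37 ± 0.49 (log2) in KO and 2.43 ± 0.22 in WT libraries, in 8 of 8 and 7 of 7 libraries. It was higher in atrial-type than in ventricular cells, here trabecular-type and compact-type cells pooled, by 1.66 ± 0.35 in KO and 1.51 ± 0.76 in WT. Trabecular-type cells alone were at the atrial level (148 and 211 CPM in KO and WT, against 145 and 203 CPM). Gja5 was also higher in vascular than in endocardial-like endothelium, by 3.06 ± 0.61 in KO and 2.93 ± 0.51 in WT. Gja1 shared the trabecular preference, by 0.71 ± 0.17 in KO and 0.57 ± 0.25 in WT, but was lower in atrial-type than in ventricular cells, by -1.01 ± 0.24 in KO and -1.21 ± 0.22 in WT. Kcne1 ran against both, with -1.71 ± 0.58 in KO and -1.68 ± 0.36 in WT between trabecular-type and compact-type cells. The Gja4 difference between valve and endocardial-like endothelium was 0.74 ± 0.68 in KO and 1.08 ± 0.45 in WT. With 1 KO library left out, the Gja4 contrast passed in 1 of 8 repeats (adjusted exact p 0.0260 to 0.0547). With 1 WT library left out, 0 of the 35 contrasts passed, the lowest adjusted exact p being 0.0547. So few libraries raise the smallest possible p and all but fix that count. In those repeats the Gja5 difference of trabecular-type over compact-type cells, for instance, stayed at 2.35 to 2.455 (log2).

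Between genotypes, Gja5 was the 1 gene of the 7 that passed the threshold, a call that did not hold with the flow cell in the fit or with sums per litter. In cardiomyocyte-like cells its levels in KO replicates 1 to 8 were 42.5, 60.4, 52.0, 42.5, 48.2, 44.5, 53.0 and 54.7 CPM. In WT replicates 1 to 7 they were 106, 74.5, 74.8, 82.5, 49.7, 77.9 and 85.4 CPM. All 8 KO libraries lay below the lowest of 6 WT libraries, whereas WT replicate 5 lay inside the KO range, with 4 of 8 KO libraries below it. The number of all genes that separate once replicate 5 is set aside was not counted. Gja5 fell by 0.68 on the log2 scale (SE 0.13, edgeR quasi-likelihood adjusted p = 0.0143), with means of 49.7 ± 6.41 CPM in KO and 78.7 ± 16.8 CPM in WT libraries. It was 1 of 149 genes called among 11269 tested in these cells (1.32%), of which 67 were lower in KO (0.595%). Over all kept cells it averaged 28.9 ± 3.58 CPM in KO and 45.3 ± 10.6 CPM in WT libraries, a log2 change of -0.67 (SE 0.14, edgeR adjusted p = 0.0450), as 1 of 27 genes called among 13451 (0.201%), 11 of them lower in KO (0.0818%). Such sums cannot by themselves tell fewer Gja5-rich cells from less Gja5 RNA per cell.

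The call rests on a design in which WT replicate 5 is the only WT library sequenced beside the KO libraries. With the flow cell added to the fit, the log2 difference was 0.01 (SE 0.23) in cardiomyocyte-like cells and 0.08 (SE 0.25) over all cells, and neither passed. With sums per litter, it was -0.59 with an adjusted p of 0.383 in cardiomyocyte-like cells and -0.55 with an adjusted p of 0.595 over all cells. Leaving out 1 library at a time, the call in cardiomyocyte-like cells held in 15 of 15 repeats (adjusted p 0.00615 to 0.0350), and the call over all cells only without WT replicate 1, 3 or 5 or KO replicate 2 (adjusted p 0.00712 to 0.102 over the 15). Genotype, flow cell and litter therefore cannot be told apart for Gja5. The level in the 3 KO litters was 42.5, 51.6 and 50.1 CPM of cardiomyocyte-like cells in litters 5, 6 and 7. In the 4 WT litters it was 90.4, 78.7, 49.7 and 81.7 CPM, in litters 1 to 4. The single WT library of litter 3 was thus at the KO level, and the other 3 WT litters above all KO litters.

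**Figure D2:**
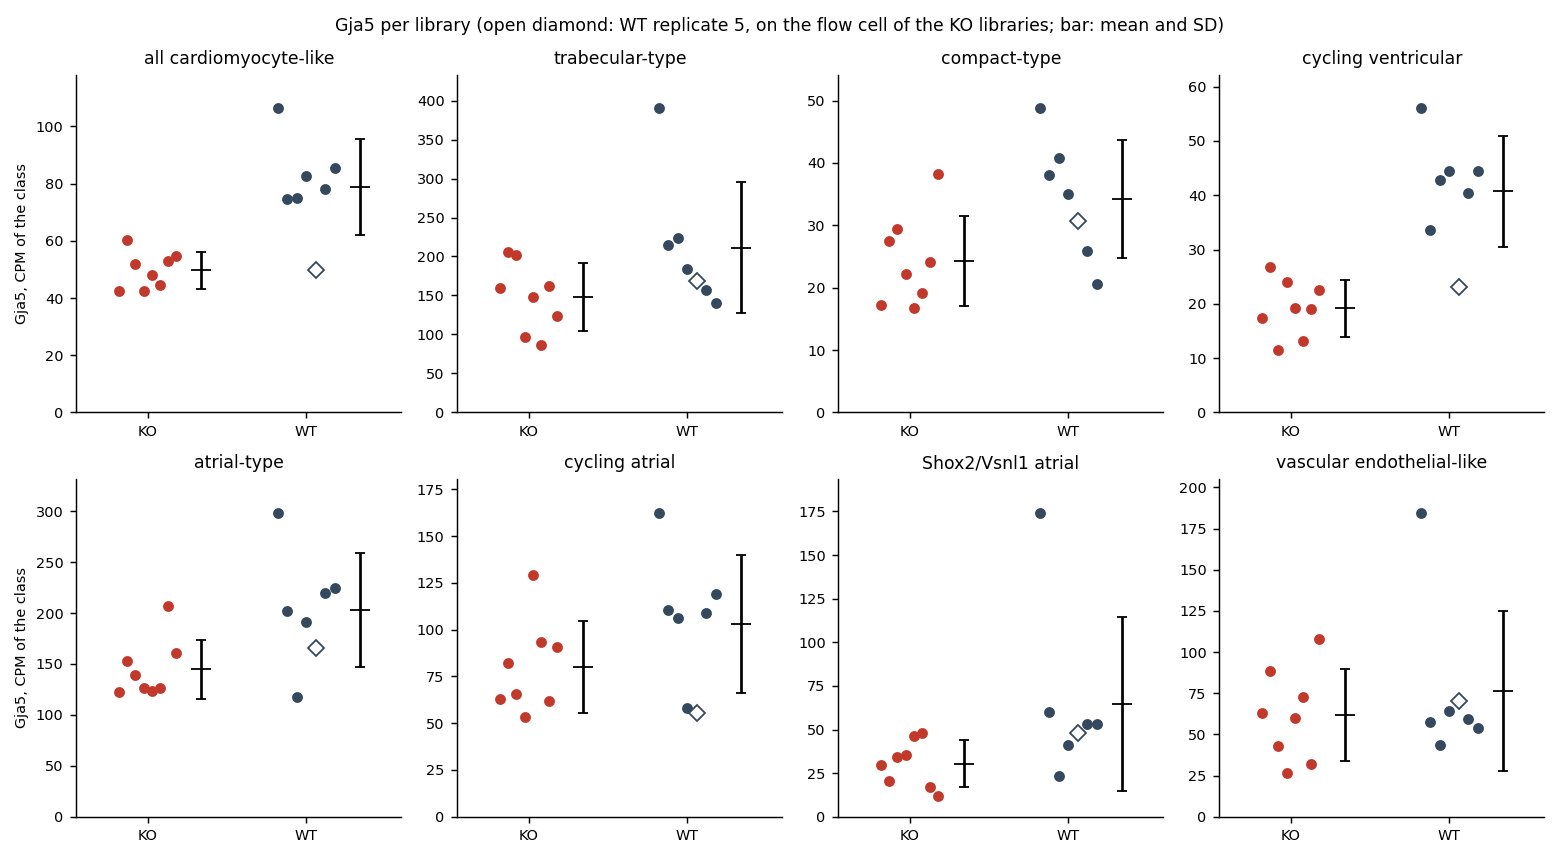
Gja5 level (CPM of the class) per library in cardiomyocyte-like cells as a whole and in single classes, KO left of WT, with the mean and SD beside the points and WT replicate 5 as an open diamond. In cardiomyocyte-like cells and in cycling ventricular cells all 8 KO libraries lie below the 6 WT libraries other than replicate 5. How many of all genes separate in this way was not counted.

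The fall of Gja5 in cardiomyocyte-like cells was then divided into what the makeup of the cells and what the level within each class account for. Trabecular-type cells made up 3.11% to 9.22% of cardiomyocyte-like cells in KO libraries (median 5.48%) and 4.62% to 15.6% in WT libraries (median 8.83%). The means were 5.93% ± 2.12 in KO and 9.65% ± 4.04 in WT libraries, a difference of -3.72 percentage points (two-sided exact permutation p = 0.0371, p = 0.223 adjusted over the 6 cardiomyocyte classes). The groups overlapped widely, and the unadjusted p rose above 0.05 without WT replicate 1, 3 or 4 or KO replicate 2, 4, 6, 7 or 8. As a share of all kept cells the difference was -1.25 points (2.57% ± 1.03 in KO, 3.82% ± 1.54 in WT, exact permutation p = 0.0771). WT replicate 5 had 7.99% trabecular-type cells among cardiomyocyte-like cells, with 6 of 8 KO libraries below it.

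The shares used for the split in CPM are of UMIs, not of cells. For trabecular-type cells the UMI share was 6.02% in KO and 9.40% in WT libraries (exact permutation p = 0.123). To isolate the makeup, each library's class shares of UMIs were combined with the Gja5 level of each class averaged over all 15 libraries. Levels obtained in this way were 61.3 ± 2.41 CPM in KO and 64.2 ± 8.40 CPM in WT libraries. The difference of -2.88 CPM, or 9.92% of the measured -29.0 CPM, was within the spread (two-sided exact permutation p = 0.373). It was -0.849 CPM without WT replicate 4 and -4.74 CPM without WT replicate 5. To isolate the level per class, the shares were held at their mean over all libraries and each library's own Gja5 levels were used. This gave 50.6 ± 6.57 CPM in KO libraries (lowest 42.1, median 51.1, highest 58.9) and 76.4 ± 21.0 CPM in WT libraries (57.6, 70.3 and 122). The groups met only at WT replicate 5, whose 57.6 CPM 7 of 8 KO libraries were below. The difference was -25.8 CPM, or 89.0% of the measured one (exact permutation p = 0.000311), and the remainder was -0.317 CPM. Counted as Gja5 UMIs per 1000 cardiomyocyte-like cells instead of CPM, the measured difference was -110 (132 ± 17.4 in KO, 242 ± 73.9 in WT), with -5.77 from the shares and -102 at fixed shares. Over the 15 libraries the lower Gja5 level of KO cardiomyocytes thus lay mainly within classes. On the flow cell that both genotypes share, KO libraries differed from WT replicate 5 by -7.02 CPM at fixed shares (exact permutation p = 0.556), where 1 WT library cannot give a p below 0.111. The difference from shares alone was 8.26 CPM there, of opposite sign and larger, so the split does not hold on that flow cell.

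**Figure D3:**
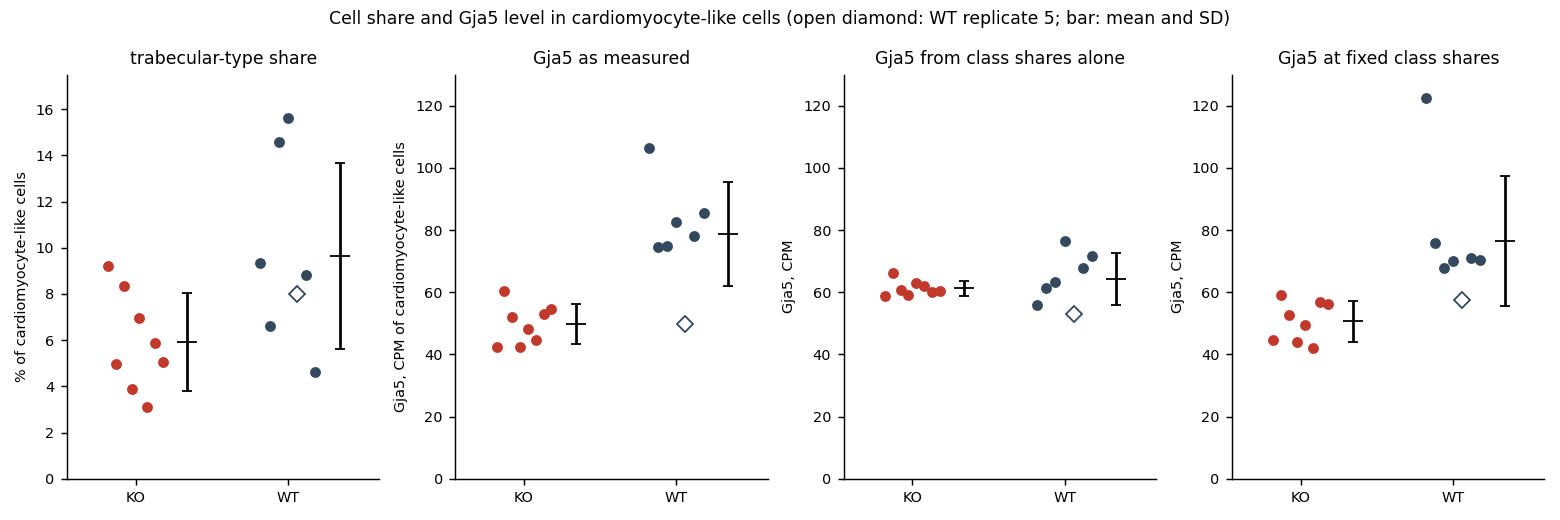
Per library, KO left of WT with mean and SD: the trabecular-type share of cardiomyocyte-like cells (%), Gja5 as measured (CPM), Gja5 from class shares alone (CPM) and Gja5 at fixed class shares (CPM). The groups overlap in the share and in the level from shares alone, and at fixed shares they separate except for WT replicate 5 (open diamond).

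The trabecular-type part was split in turn into cell share and level per cell. Trabecular-type cells supplied 25.7 ± 15.2 Gja5 UMIs per 1000 cardiomyocyte-like cells in KO and 66.3 ± 47.1 in WT libraries, a difference of -40.6 (two-sided exact permutation p = 0.0412) that is 36.9% of the whole. The p stayed below 0.05 in 5 of 15 repeats with 1 library left out (0.00932 to 0.0851). Of these -40.6 UMIs, -18.8 (46.3%) came from the cell share, -17.4 (42.9%) from UMIs per trabecular-type cell and -4.41 from both together. Per 1000 trabecular-type cells there were 399 ± 130 Gja5 UMIs in KO and 626 ± 302 in WT libraries. The difference of -227 was -149 without WT replicate 1, and the part from UMIs per cell was then -11.2. On the shared flow cell the difference per 1000 trabecular-type cells was 38.9, as WT replicate 5 had 360.0 UMIs per 1000 trabecular-type cells. The other cardiomyocyte classes supplied 107 ± 18.5 UMIs per 1000 cells in KO and 176 ± 46.2 in WT libraries (difference -69.5, exact permutation p = 0.00295). Against WT replicate 5 alone the sign was the opposite, with 91.1 UMIs from the other classes in that library (difference 15.5) and 119.9 from all cardiomyocyte-like cells (difference 12.4). The trabecular-type part of all cardiomyocyte Gja5 UMIs was 19.1% ± 11.2 in KO and 25.5% ± 13.7 in WT libraries, a difference within the spread (exact permutation p = 0.331). This split and the tests by class that follow were chosen after the data had been seen.

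Per class, Gja5 was lower in KO in 6 of 6 cardiomyocyte classes by the mean, though not all of the differences passed. Which classes passed depended on the unit. In UMIs per 1000 cells, which also move with depth, compact-type and cycling atrial cells passed (adjusted exact permutation p = 0.0343 in both). Neither passed in CPM, the unit used below. Trabecular-type cells passed in neither unit (adjusted exact permutation p = 0.0735 in UMIs per cell and 0.0722 in CPM). In trabecular-type cells it was 86.5 to 205 CPM in KO (median 154) and 140 to 390 CPM in WT libraries (median 184), with wide overlap. The edgeR log2 difference was -0.51 (SE 0.20, adjusted p = 0.414), and -0.30 without WT replicate 1, which had the 390 CPM. In these cells edgeR called 0 of 3749 genes (0.0%), with 314 at an unadjusted p under 0.05 and 11 called by DESeq2. The clearest class was cycling ventricular muscle, with 11.5 to 26.8 CPM in KO (median 19.2) and 23.0 to 56.0 CPM in WT libraries (median 42.7). Its means were 19.2 ± 5.26 CPM in KO and 40.7 ± 10.2 CPM in WT libraries (exact permutation p = 0.0028 adjusted over the 6 classes). WT replicate 5, at 23.0 CPM, lay inside the KO range, and 8 of 8 KO libraries lay below the other 6 WT libraries. How many of all genes separate once replicate 5 is set aside was not counted. Atrial-type cells (adjusted exact permutation p = 0.0395) and the Shox2 and Vsnl1 atrial cells (30.4 ± 13.3 CPM in KO, 64.7 ± 49.7 CPM in WT, adjusted exact permutation p = 0.0395) also passed. Without WT replicate 1, at 174 CPM in the Shox2 and Vsnl1 atrial cells, the difference there was -16.1 CPM in place of -34.3. With 1 library left out, cycling ventricular cells passed in 15 of 15 repeats, the Shox2 and Vsnl1 atrial cells in 7 and atrial-type cells in 5, and without WT replicate 1 the adjusted exact permutation p was 0.0932 in both atrial classes. Compared with WT replicate 5 alone, KO cycling ventricular cells differed by -3.81 CPM, atrial-type cells by -20.9 CPM and cycling atrial cells by 24.3 CPM. In the fit over all genes, atrial-type cells had a log2 difference of -0.52 (SE 0.16, edgeR adjusted p = 0.181, and 0.0421 without WT replicate 3) with 19 of 5356 genes called (0.355%), 5 of them lower in KO (0.0934%). Compact-type cells had -0.54 (SE 0.18, edgeR adjusted p = 0.176) with 29 of 9009 called (0.322%) and 11 of them lower in KO (0.122%), from 24.3 ± 7.24 CPM in KO and 34.2 ± 9.47 CPM in WT libraries. The compact-type class joins a deep and a shallow cluster, and the shallow one held 52.5% of its KO and 43.7% of its WT cells.

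At fixed shares, atrial-type cells contributed -6.95 CPM to the difference, cycling ventricular cells -6.78, trabecular-type cells -4.80, compact-type cells -3.57, Shox2 and Vsnl1 atrial cells -2.17 and cycling atrial cells -1.55. Trabecular-type cells did not differ in their fall from compact-type cells beyond the spread. The log2 ratio of Gja5 between them was 2.37 ± 0.49 in KO and 2.43 ± 0.22 in WT libraries (difference -0.06, or 0.05 without KO replicate 8 and 0.02 without WT replicate 1, two-sided exact permutation p = 0.772). Vascular endothelial-like cells had 26.4 to 108 CPM in KO (median 61.6) and 43.7 to 185 CPM in WT libraries (median 59.2), and the groups overlapped. Their log2 difference was -0.23 (SE 0.32, 95% interval -0.87 to 0.41, edgeR adjusted p = 0.844), and 0.08 without WT replicate 1, with 0 of 4105 genes called (0.0%), 400 at an unadjusted p under 0.05 and 5 called by DESeq2. The ratio of vascular endothelial-like to trabecular-type Gja5 was -1.26 ± 0.75 in KO and -1.49 ± 0.41 in WT libraries (difference 0.22, exact permutation p = 0.492), so the data do not separate muscle from vascular endothelium in this respect.

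Depth and some measures of stray RNA were lower in KO by the mean. Median UMIs per cell differed by -261 in kept cells (exact permutation p = 0.0726) and by -272 in trabecular-type cells (exact permutation p = 0.599). Of trabecular-type cells, 28.9% of 720 in KO and 38.7% of 845 in WT libraries had a Gja5 UMI, at median depths of 1860 and 2047 UMIs per cell. With each cell thinned to 1000 UMIs the shares per library were 13.7% ± 4.03 in KO and 18.1% ± 7.96 in WT (exact permutation p = 0.202). Cycling ventricular cells had 1.90% ± 0.573 in KO and 3.90% ± 0.975 in WT after thinning (exact permutation p = 0.000311), and atrial-type cells 12.8% ± 2.63 in KO and 18.5% ± 5.74 in WT (exact permutation p = 0.0211). Fibroblast-like cells, which should lack Gja5, showed a UMI in 0.348% of 4022 KO and 1.10% of 2820 WT cells, at median depths of 1608 and 1993 UMIs. Their Gja5 level was 1.89 ± 1.70 CPM in KO and 4.54 ± 2.19 CPM in WT libraries (exact permutation p = 0.0252), so this background was lower in KO as well. In atrial-type cells the summed level of 11 endocardial markers was 36.0 to 76.4 CPM in KO and 70.2 to 118 CPM in WT libraries, and that of 10 fibroblast markers 113 to 312 CPM in KO and 154 to 471 CPM in WT. In trabecular-type cells the endocardial sum was 57.7 to 107 CPM in KO and 60.6 to 140 CPM in WT libraries, and the fibroblast sum 96.3 to 177 CPM in KO and 105 to 350 CPM in WT. In atrial-type cells 0 of the 11 endocardial and 0 of the 10 fibroblast markers were at 0 in either group. In trabecular-type cells 0 of both lists were at 0 in KO, and 1 endocardial and 0 fibroblast markers in WT. The sum of 14 cardiomyocyte markers in trabecular-type cells was higher in KO, at 86780 CPM against 81680 CPM in WT (exact permutation p = 0.017). For 9 erythroid markers it was 654 CPM in KO and 1527 CPM in WT trabecular-type cells (exact permutation p = 0.0573). In atrial-type cells the erythroid sum was 794 CPM in KO and 1847 CPM in WT (exact permutation p = 0.0502). Sums of vascular endothelial and macrophage markers did not differ beyond the spread in either class. That of 12 vascular endothelial markers was 5762 CPM in KO and 5508 CPM in WT trabecular-type cells (exact permutation p = 0.559). In atrial-type cells it was 3550 CPM in KO and 3712 CPM in WT (exact permutation p = 0.535). This list holds Mest, which is also a leading gene of the trabecular-type cluster, so its sum does not measure stray RNA alone. For 9 macrophage markers the exact permutation p was 0.459 in trabecular-type and 0.228 in atrial-type cells. The part of stray RNA in the Gja5 result was not tested.

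None of the other 6 genes passed between genotypes. All 7 genes passed the low-count filter over all cells, 6 in cardiomyocyte-like cells, 5 in compact-type cells and 3 in each of the other 4 classes fitted. Over the 7 sums fitted (all cells, cardiomyocyte-like cells and 5 classes), 25 fold changes were given for genes of at least 20 CPM. Of these, 2 passed, both of Gja5, and 6 had an unadjusted p under 0.05. The 6 were Gja5 in all, cardiomyocyte-like, trabecular-type, compact-type and atrial-type cells, which overlap as sums, and Gjc1 in cardiomyocyte-like cells. Such a p was common among all genes. It was reached by 2149 of 13451 over all cells, 1873 of 11269 in cardiomyocyte-like and 314 of 3749 in trabecular-type cells. In compact-type cells it was reached by 1205 of 9009 genes and in atrial-type cells by 623 of 5356. In the endocardial-like fit 21 of 8397 genes were called (0.25%), 9 of them lower in KO (0.107%). Gja1, the main ventricular connexin, had 472 ± 88.2 CPM in cardiomyocyte-like cells of KO and 502 ± 82.5 CPM in those of WT libraries (log2 -0.09, 95% interval -0.34 to 0.16, edgeR adjusted p = 0.762). In trabecular-type cells, where Gja5 was lower by the mean, its log2 difference was 0.09 (95% interval -0.18 to 0.36). Gja4 in endocardial-like cells had 104 ± 14.4 CPM in KO and 96.6 ± 18.7 CPM in WT libraries, and its log2 difference in vascular endothelial-like cells was -0.44 (SE 0.34, edgeR adjusted p = 0.676). Gjc1 had 54.4 ± 18.9 CPM in KO and 38.2 ± 12.7 CPM in WT cardiomyocyte-like cells (log2 0.49, SE 0.19, edgeR adjusted p = 0.197). Kcne1 had 183 ± 22.7 CPM in KO and 196 ± 36.1 CPM in WT cardiomyocyte-like cells (log2 -0.11, 95% interval -0.34 to 0.13, edgeR adjusted p = 0.704). Hcn4, at 4.55 ± 1.84 CPM in KO and 4.70 ± 2.30 CPM in WT, and Kcnq1, at 12.6 ± 1.54 CPM in KO and 15.6 ± 7.48 CPM in WT, were too low in cardiomyocyte-like cells for a fold to be given. The KO and WT ranges of all 7 genes overlapped, over all cells and in cardiomyocyte-like cells, where 0.446% and 0.497% of genes tested had ranges that did not.

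The KO libraries did not form 1 group for Gjc1 and Kcne1. In cardiomyocyte-like cells Gjc1 had 59.0, 72.2, 77.7 and 76.0 CPM in KO replicates 5 to 8 (tm4b) and 38.1, 36.7, 36.7 and 38.5 CPM in KO replicates 1 to 4 (tm4a), against 25.8 to 62.2 CPM in WT libraries. All tm4b values exceeded all tm4a values, and 3 of them the highest WT value. How many of all genes separate the alleles in this way was not counted. The log2 difference of tm4b over tm4a was 0.81 (SE 0.10, edgeR adjusted p = 0.00077). In these cells 12.6% of 11213 genes were called between the alleles, so such calls were common. Kcne1 had 166, 161, 177 and 153 CPM in tm4b and 207, 181, 213 and 203 CPM in tm4a libraries, against 153 to 249 CPM in WT libraries. It was lower in tm4b, by a log2 difference of -0.40 (SE 0.09, edgeR adjusted p = 0.0096). The tm4b libraries lay in the lower part of the WT range, the lowest just below it (152.7 against 153.2 CPM). By class, mean Kcne1 was lower in tm4b in compact-type (292.9 against 356.5 CPM), cycling ventricular and Shox2 and Vsnl1 atrial cells. It was higher in tm4b in trabecular-type (118.9 ± 60.3 against 84.2 ± 23.4 CPM), atrial-type and cycling atrial cells. Single classes were not tested between alleles. Over all cells, where 15.2% of 13535 genes were called, Gjc1 differed by 0.83 (SE 0.10, edgeR adjusted p = 0.00175) and Kcne1 by -0.61 (SE 0.13, edgeR adjusted p = 0.0113). The higher Gjc1 of tm4b libraries was not limited to muscle: fibroblast-like cells had 109 to 133 CPM in tm4b and 49.9 to 81.2 CPM in tm4a libraries. The difference between alleles in fibroblast-like cells was not tested. Gja5 in cardiomyocyte-like cells had means of 50.1 CPM in tm4b and 49.4 CPM in tm4a libraries (log2 -0.09, edgeR adjusted p = 0.678). All tm4b libraries came from litter 7, so allele and litter cannot be told apart, and the comparison was added after the data had been seen.

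**Figure D4:**
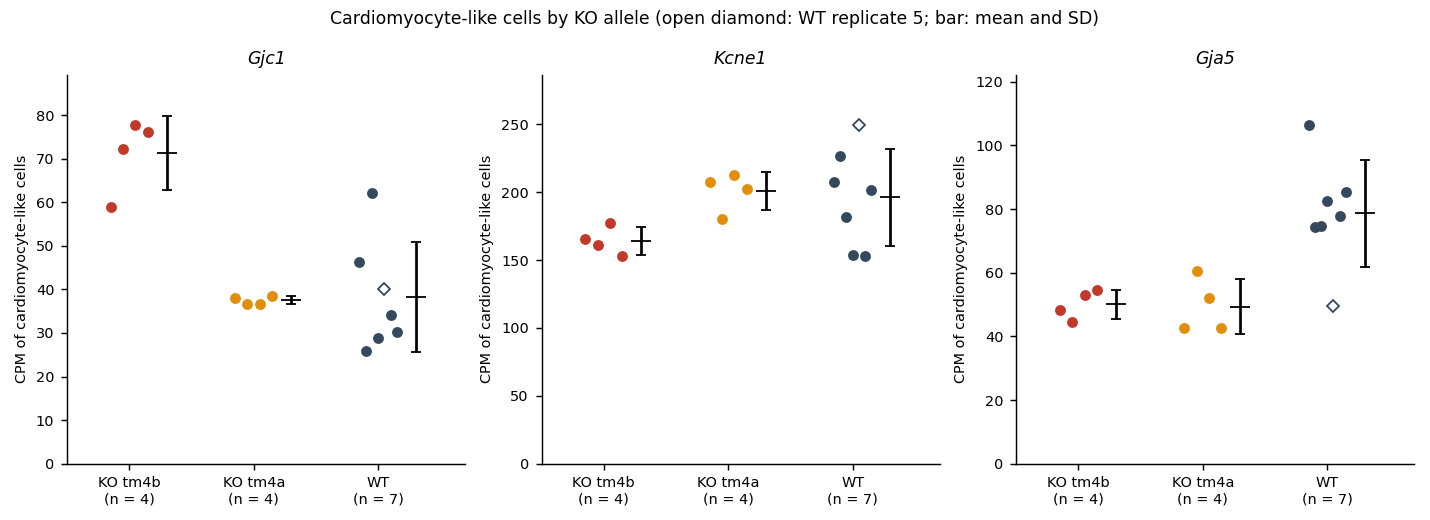
Level in cardiomyocyte-like cells (CPM) of Gjc1, Kcne1 and Gja5 per library in KO tm4b (n = 4), KO tm4a (n = 4) and WT (n = 7), with the mean and SD beside the points. The tm4b libraries lie above the tm4a libraries for Gjc1 and below them for Kcne1, and both alleles share 1 range for Gja5.

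Other genes of conduction were counted in lists. Of 20 other connexins, pannexins and their scaffold, 4 could be tested in cardiomyocyte-like cells and 0 passed, with a median log2 difference of 0.09 against -0.02 for all genes. The best expressed were Tjp1, a scaffold that binds connexins, the pannexin Panx1, and Gja3, the lens connexin, with 14.9 ± 2.05 CPM in KO and 10.1 ± 3.07 CPM in WT libraries (log2 0.55, edgeR adjusted p = 0.0868). Of 29 other conduction and pacemaker channels, among them the calcium release channel Ryr2, the sodium-calcium exchanger Slc8a1 and the calcium channel subunit Cacna2d2, 18 were tested and 0 passed (median -0.15, 6 of 18 positive). Of 22 regulators, among them Id2, Tbx20 and Gata6, 21 were tested and 0 passed (median -0.07). In cardiomyocyte-like cells as a whole 8 of 9 trabecular genes had a negative difference, with a median of -0.34, and 0 of 9 passed. In trabecular-type cells 7 of these genes were tested, 0 passed, and the median was -0.04 with 3 positive. Nppa, the atrial natriuretic peptide gene, had 5084 ± 696 CPM in KO and 6283 ± 1882 CPM in WT cardiomyocyte-like cells (log2 -0.34, edgeR adjusted p = 0.347), and within trabecular-type cells its difference was -0.17 (edgeR adjusted p = 0.834). Cited1 had 617 ± 95.7 CPM in KO and 797 ± 207 CPM in WT cardiomyocyte-like cells (log2 -0.39, edgeR adjusted p = 0.220). Most of these genes also named the trabecular-type cluster, so their level within it is not independent of the clustering.

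Of 17 arterial endothelial genes, 12 were tested in vascular endothelial-like cells and 0 passed, with a median log2 difference of 0.21 against -0.02 for all genes. Nrp1, a VEGF co-receptor, had 782 ± 145 CPM in KO and 635 ± 197 CPM in WT libraries (log2 0.27, edgeR adjusted p = 0.614), and Igfbp3 had 761 ± 352 CPM in KO and 451 ± 263 CPM in WT (log2 0.71, edgeR adjusted p = 0.486). The 1 gene of all lists that passed was Notch1, a receptor of endocardium and endothelium. It was lower in cardiomyocyte-like cells, at 3.20 ± 0.964 CPM in KO and 5.995 ± 1.88 CPM in WT libraries (log2 -0.92, SE 0.23, edgeR adjusted p = 0.0464). Both means lie below the 20 CPM required above for a fold of the connexin and channel genes. Among all genes tested in these cells, 149 of 11269 were called (1.32%). With the flow cell in the fit Notch1 no longer passed (log2 -1.38, edgeR adjusted p = 0.549). Its level in vascular endothelial-like cells was 157 ± 34.7 CPM in KO and 182 ± 50.9 CPM in WT libraries, and the log2 difference there was -0.22 (edgeR adjusted p = 0.696). The mean sum of endocardial markers was 58.96 CPM in KO and 95.39 CPM in WT atrial-type cells (exact permutation p = 0.0014). In compact-type cells it was 79.05 CPM in KO and 104.9 CPM in WT (exact permutation p = 0.0264). In trabecular-type cells it was 79.45 CPM in KO and 107.7 CPM in WT (exact permutation p = 0.0357). Sums of vascular endothelial markers did not differ beyond the spread in these classes. The part of stray RNA in the Notch1 result was not tested.

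Likeness in pattern was measured by Pearson's r of the mean WT level, as log2(CPM + 5), over 14 classes, which share libraries and are no independent samples, so r is given as a description. The genes most like Gja5 were Mylpf (r = 0.900), Slc16a12 (0.899), Ppm1j (0.891), Ptrhd1 (0.891) and Nedd8 (0.886), all with their highest level in trabecular-type cells. Those most like Gja4 were Nos3, the endothelial nitric oxide synthase (0.989), Nts (0.983) and Sox7 (0.982). Kcne1 was nearest to Ddc (0.977) and to the ventricular myosin genes Myl3 (0.963) and Myh7b (0.962). Gja1 was nearest to Hif1a (0.882), Gjc1 to Carm1 (0.916), Hcn4 to Faim3 (0.935), and Kcnq1, at its low level, to mt-Tp (0.949).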

How the data were processed

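Whole-heart cells were profiled by Drop-seq, which tags polyadenylated RNA near its 3′ end with a cell barcode and a molecular identifier. The authors deposited whole-number UMI counts for each gene and cell barcode, without normalization. The submitters' processing notes name the build mm10 and the tools Seurat 2.1 and bcl2fastq 2.17, and an aligner is not given in the sources used. Groups follow the sample titles. The description of WT replicate 4 carries the number 3. The number of embryos behind each library and the deleted stretch of Adamts19 are not stated in the labels. The p-values therefore measure the spread between these libraries, and a 3′ tag of Adamts19 may lie outside the deleted part.

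Cells needed at least 300 genes and no more than 30% mitochondrial UMIs, which 50899 of 55152 barcodes met. They carry 50818 distinct barcode sequences, 70 of which occur in more than 1 library. No doublet caller was run, and leaving out the 5% of cells with most UMIs is an alternative. Cells were scaled to 10000 UMIs and clustered in scanpy 1.11.5 (2000 variable genes without the 7 genes described, 30 components, 20 neighbours, Leiden resolution 1.0 with leidenalg 0.10.2), which gave 26 clusters. Clusters led by haemoglobin genes at a low haemoglobin share stayed unnamed, by a limit set after the clusters were seen. The unnamed cells were 3.08% ± 1.58 of KO and 9.88% ± 10.4 of WT cells.

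UMI counts were summed per library and class and tested with edgeR 4.0.16 (quasi-likelihood, TMM, filterByExpr) in R 4.3.3, group as the only term, with Benjamini-Hochberg adjustment over all genes tested and a threshold of 0.05. DESeq2 1.42.0 was an alternative. A fold is given for the 7 genes where the mean over the libraries reached 20 CPM. Single values were compared by two-sided exact permutation of the library labels. Log values add 5 CPM. Class markers count as raised at over 2-fold after adding 20 CPM. Intervals cover 95%. The text names all 7 genes and, from each list, those past the threshold and up to 3 more by mean level, with Igfbp3 and Notch1 in vascular cells added after their values were seen. The genes, lists and classes were chosen with earlier results of these data known. Promoter sequences were found for 4 of the 7 genes (Gja5, Gja1, Gja4 and Hcn4). Replicate numbers do not pair KO with WT libraries.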

Additional observations from a re-analysis of the deposited data

Results flagged for a closer look

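In 62 sets of 7 or 8 libraries, 10 had a library set apart from the rest by Dixon's criterion, where chance sets apart about 1 in 20. WT replicate 1 stood high for Gja5 in trabecular-type cells (390.0 CPM, next 223 CPM), in vascular endothelial-like cells (184.7 CPM, next 70.1 CPM), in the level at fixed class shares (122.4 CPM, next 75.9 CPM) and in the log2 ratio of trabecular-type to compact-type cells (2.877, next 2.50). Its vascular endothelial-like sum rests on 21 Gja5 UMIs in 50 cells. Among KO libraries, Gja5 was high in replicate 2 over all cells (37.44 CPM, next 29.2 CPM) and in replicate 7 in atrial-type cells (207.1 CPM, next 160 CPM). Kcne1 was high in trabecular-type cells of KO replicate 6 (209.1 CPM, next 115 CPM). Gja1 was high in compact-type cells of 1 WT library (791.2 CPM, next 598 CPM) and low in vascular endothelial-like cells of another (254.8 CPM, next 333 CPM). Gjc1 was high in endocardial-like cells of 1 WT library (47.87 CPM, next 28.2 CPM). Without WT replicate 1, Gja5 at fixed class shares was still lower in KO (-18.2 CPM, exact permutation p = 0.000666).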

How the results depend on the processing

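With the flow cell in the fit, Gja5 had the opposite sign (0.0767 over all cells, 0.00569 in cardiomyocyte-like cells) and did not pass. Over all cells it also did not pass with no low-count filter (-0.67), a replicate block (-0.63), litter sums (-0.55), WT replicates 1 to 4 left out (-0.53) or the top 5% of cells by UMIs left out (-0.67). In cardiomyocyte-like cells it did not pass with the block (-0.67) or litter sums (-0.59) and passed under the 9 other settings run beside single libraries left out. The cause was not tested. Same-numbered KO and WT libraries deviated with correlations of -0.467 to 0.0975, and 0 of 7 correlated best with their own number, so the numbers are no pairing.

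The count of genes called moved most. DESeq2 called 432 over all cells, 386 in cardiomyocyte-like, 11 in trabecular-type, 113 in compact-type, 39 in atrial-type, 117 in endocardial-like and 5 in vascular endothelial-like cells. Without WT replicates 1 to 4 the counts were, in the same order, 1008, 887, 55, 465, 151, 550 and 19. With the flow cell they were 6 over all cells, 2 in cardiomyocyte-like, 0 in compact-type, 4 in atrial-type, 7 in endocardial-like and 1 in vascular endothelial-like cells. With the block they were 2 over all cells, 3 in cardiomyocyte-like, 0 in compact-type, 8 in atrial-type and 0 in endocardial-like cells. Litter sums gave 2 over all cells, 2 in cardiomyocyte-like, 6 in trabecular-type, 3 in compact-type and 0 in endocardial-like cells. With no low-count filter the counts were 46 in trabecular-type, 48 in compact-type, 74 in atrial-type, 55 in endocardial-like and 9 in vascular endothelial-like cells. Without the top 5% of cells, 8 genes were called over all cells and 71 in cardiomyocyte-like cells. Clustering without Nppa and Nppb gave 44 in compact-type cells and no trabecular-type cluster. At resolution 1.5, a setting added after seeing the data, it gave 45 in compact-type and 1 in trabecular-type cells.

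With 1 library left out, 5 (WT replicate 6 or KO replicate 7) to 397 (WT replicate 3) genes were called over all cells, and 56 (KO replicate 8) to 456 (WT replicate 3) in cardiomyocyte-like cells. The ranges were 0 to 14 in trabecular-type, 5 to 180 in compact-type, 11 to 45 in atrial-type, 5 to 154 in endocardial-like and 0 to 3 in vascular endothelial-like cells, with the highest without WT replicate 3. Between alleles they were 743 (KO replicate 7) to 2197 (KO replicate 4) over all cells and 666 to 1620 in cardiomyocyte-like cells, for the same replicates. Gja5 lay between -0.77 and -0.60 over all cells, -0.61 and -0.41 in atrial-type cells, and -0.40 and 0.0752 in vascular endothelial-like cells. Of the class contrasts, 19 to 22 of 35 passed with 7 KO libraries. With 6 WT libraries 0 to 0 passed (lowest adjusted exact p 0.0547), where so few libraries all but fix that outcome. Of 111 contrast values under other settings, 107 kept their call, 4 lost it and 0 changed sign.

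The trabecular share of cardiomyocyte-like cells differed by -4.56 to -2.73 points with 1 library left out. It did not pass without the top 5% of cells (-3.02, exact permutation p = 0.0634), on the shared flow cell (-2.06), with the block (-3.60), by litter (-2.71) or without WT replicates 1 to 4 (-1.22). As a share of kept cells it differed by -1.57 to -0.77 points with 1 library left out and passed at resolution 1.5 (-1.55, exact permutation p = 0.0485). Gja5 at fixed class shares did not pass on the shared flow cell (-7.02 CPM) or by litter (-24.9 CPM), and the level from shares alone was 8.26 CPM higher in KO on that flow cell.

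Differences that did not pass changed sign as follows (log2). For Gja1 these were 0.0827 (litter sums) and 0.0489 (WT replicates 1 to 4 left out) over all cells, 0.0656 and 0.0629 with the same settings in cardiomyocyte-like cells, and -0.0778 in trabecular-type cells clustered without Nppa and Nppb at resolution 1.5. In compact-type cells they were 0.0950 (flow cell), 0.0952 (litter sums), 0.0797 (WT replicates 1 to 4 left out), 0.00989 (at least 500 genes) and 0.00715 (resolution 1.5), with -0.11 to 0.0433 when 1 library was left out. In endocardial-like cells they were -0.00144 (flow cell) and -0.0203 (block), with -0.0419 to 0.0819 when 1 library was left out. Gja4 over all cells had 0.0233 with the block and -0.22 to 0.0541 when 1 library was left out. The trabecular-type to compact-type ratio of Gja5 had 0.117 (resolution 1.5), 0.0337 (the 7 genes kept for clustering), 0.181 (at least 500 genes), 0.317 (clustered without Nppa and Nppb at resolution 1.5), 0.0813 (flow cell), 0.0520 (block) and 0.0915 (by litter), with -0.13 to 0.05 when 1 library was left out. The vascular endothelial-like to trabecular-type ratio had -0.0560 on the shared flow cell.

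Depth limits Hcn4 and Kcnq1, whose low counts gave no fold in most classes, and 1 WT library beside the KO libraries limits any comparison within a flow cell.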
